A study of Mus musculus with 6 samples.

Results

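Genes of lipoprotein remodeling and receptors, 8 in number, were followed in mouse liver: Lcat, Pltp, Lipc, Lpl, Angptl4, Abca1, Scarb1 and Lrp1. They were taken by symbol from tables of 23291 genes, and all 8 were listed and passed the filter on low values (at least 1 FPKM in at least 3 libraries). FPKM is a fragment count divided by gene length and by the size of the library. The dabigatran group was C57BL/6 mice fed for 3 months a high fat (Western) diet that held 10 mg of dabigatran etexilate per gram, and the diet group was C57BL/6 mice fed the same diet without it for 3 months. Both groups therefore carry the diet, and mice on ordinary chow were not analysed here. Dabigatran etexilate is an oral prodrug of a direct thrombin inhibitor, and the study asked how it alters hepatic gene expression on this diet. The sources used here state neither age nor sex of the mice, and RNA came from whole snap frozen liver. In bulk RNA, fewer cells of a type and less RNA per cell cannot be told apart.

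The diet group had 3 libraries. For the dabigatran group 3 tables were deposited, but replicate 0 is a copy of replicate 1 in each of the 23291 genes. The copy was set aside, which leaves dabigatran replicates 1 and 2 (n = 2). Relative to diet replicate 0, the library size behind the FPKM was 0.857 and 0.772 in the dabigatran libraries. It was 0.761 and 0.967 in diet replicates 1 and 2. This is sequencing depth only if the FPKM were scaled by depth, which is not stated. The hepatocyte gene Alb, for albumin, was highly expressed in each library, with 18532 and 27246 FPKM in the dabigatran libraries and 18647 to 21821 FPKM in the diet libraries.

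Lipoproteins carry triglyceride and cholesterol through plasma and are reshaped there by enzymes, transfer proteins and cell surface receptors. Lipases hydrolyse their triglyceride and phospholipid, secreted inhibitors restrain those lipases, and the transporter ABCA1 starts the formation of high density lipoprotein (HDL) by passing phospholipid and cholesterol to apolipoprotein A-I. LCAT then esterifies the cholesterol of HDL, PLTP moves phospholipid between particles, and the liver takes up cholesteryl ester through SR-BI (the product of Scarb1) and remnant particles through endocytic receptors such as LRP1.

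The hepatic lipase gene Lipc was lower with dabigatran in every library, at 1.67-fold, and the lipase inhibitor gene Angptl4 was higher in every library, at 1.96-fold. Abca1 was higher in both dabigatran libraries by unequal amounts, 1.51-fold on average, and the other 5 genes differed by at most 1.21-fold. None of the 8 genes passed the test over all genes (limma, adjusted p under 0.05), as 0.429% of the 10247 tested genes did (0.127% higher and 0.303% lower). At an unadjusted p under 0.05, limma had 3 of the 8, with Angptl4 and Abca1 higher and Lipc lower, beside 16.0% of all tested genes. Abca1 was past that limit in 8 of 15 alternatives, so the count fell to 2 in the other 7. Limma with voom, run on whole fragments in 7 of the 8 genes, also called 0 and had the same 2 higher and 1 lower at an unadjusted p under 0.05. The groups did not overlap in 4 of the 8 genes, 3 with higher and 1 with lower dabigatran values, against 34.4% of all tested genes (17.2% in each direction). The median log2 difference of the 8 genes was 0.22, and that of all tested genes was 0.020.

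**Figure D1:**
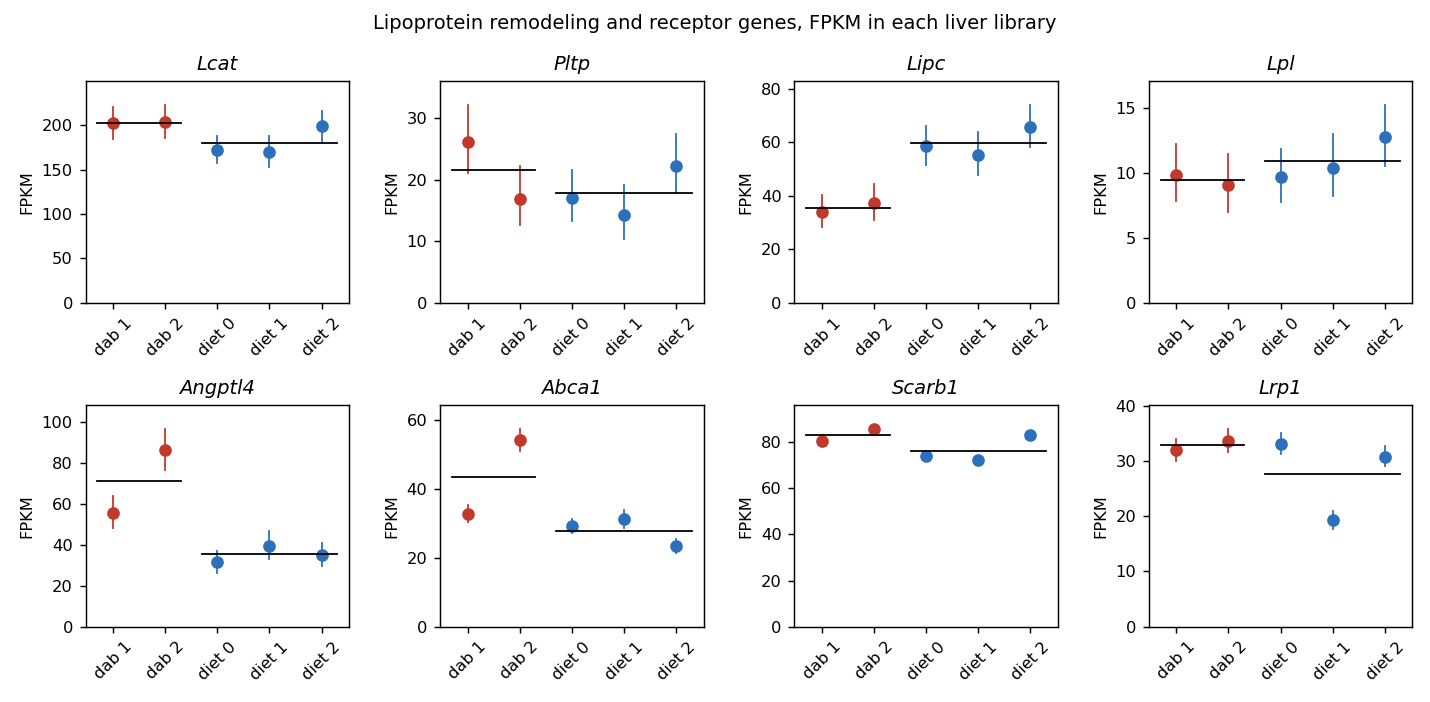
FPKM (vertical axes, linear from 0) of the 8 genes in the dabigatran libraries (dab, red) and the diet libraries (blue), with group means as black lines and vertical bars for the 95% interval of counting error, which Scarb1 lacks. Lipc sits at 33.9 and 37.3 FPKM in the dabigatran libraries, below all diet libraries, and Angptl4 at 55.7 and 86.2 FPKM, above all of them.

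Lcat (chromosome 8, 105939551 to 105943382 on GRCm38, minus strand) encodes lecithin-cholesterol acyltransferase, which hepatocytes secrete. It was the most abundant of the 8 genes in all 5 libraries. It had 202 and 203 FPKM in the dabigatran libraries, against 172, 169 and 199 FPKM in diet replicates 0, 1 and 2. Both dabigatran libraries lay above the diet libraries, but diet replicate 2 came close to them. The log2 difference was 0.17 ± 0.17 (SE), with a 95% interval from -0.21 to 0.56 (limma, adjusted p = 0.641).

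Pltp (chromosome 2, 164839518 to 164857711, minus strand) encodes the phospholipid transfer protein. It had 26.2 and 16.9 FPKM in the dabigatran libraries, against 17.0, 14.3 and 22.2 FPKM in diet replicates 0, 1 and 2, so the groups overlapped. The log2 difference was 0.26 ± 0.26 (SE; limma, adjusted p = 0.669), and it was -0.050 without dabigatran replicate 1. Its exons overlap those of Ctsa on the opposite strand over 19.3% of their bases, and the use of strand is not stated, so fragments of either gene may have been counted for the other.

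Lipc (chromosome 9, 70798128 to 70952226, minus strand) encodes hepatic lipase, made by hepatocytes, which hydrolyses triglyceride and phospholipid of remnants and HDL. It had 33.9 and 37.3 FPKM in dabigatran replicates 1 and 2, against 58.6, 55.4 and 65.8 FPKM in diet replicates 0, 1 and 2. These are 35.6 ± 2.42 FPKM with dabigatran (SD, n = 2) and 59.9 ± 5.33 FPKM on diet alone (SD, n = 3). The groups did not overlap, and the gap between them was wider than the range within either. The values rest on 126 and 125 fragments in the dabigatran libraries and on 254, 183 and 276 in the diet libraries. The counting interval reached up to 44.4 FPKM in the dabigatran libraries and down to 47.7 FPKM in the diet libraries, so the intervals did not meet. The log2 difference was -0.74 ± 0.17 (SE), with a 95% interval from -1.14 to -0.35. Its unadjusted p was 0.00249 and its adjusted p 0.101 (limma), which ranks 252 among the 10247 genes. Of 9 hepatocyte markers, 4 were higher and 0 lower at an unadjusted p under 0.05 (limma), beside 6.87% and 9.13% of all tested genes. The 4 higher were Cps1, Tat, Serpina1a and Hnf4a. The groups did not overlap in these 4 and in 1 with lower values, Ttr, against 17.2% of all tested genes each way. They overlapped in Alb, Cyp2e1, Trf and Asgr1. The summed level of the 9 markers was 33066 and 43601 FPKM in the dabigatran libraries and 32681 to 36619 FPKM in the diet libraries. Alb was the largest part of it, with 18532 and 27246 FPKM in the dabigatran libraries. The part of these markers in the Lipc difference was not tested.

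Lpl (chromosome 8, 68880491 to 68907448, plus strand) encodes lipoprotein lipase, the main lipase of muscle and fat, which adult hepatocytes make little of and macrophages make. It was the lowest of the 8 genes in all 5 libraries, with 9.82 and 9.04 FPKM in the dabigatran libraries and 9.65, 10.4 and 12.7 FPKM in the diet libraries. The groups overlapped, and the log2 difference was -0.19 ± 0.21 (SE), with a 95% interval from -0.67 to 0.29 (limma, adjusted p = 0.687). Of 12 macrophage markers, 0 differed at an unadjusted p under 0.05 (limma), beside 16.0% of all tested genes. Their summed level was 497 and 327 FPKM in the dabigatran libraries and 359 to 484 FPKM in the diet libraries. Of 9 adipocyte markers, 5 were tested and 2, Cfd and Pparg, fell (limma, adjusted p = 0.0110 and 0.0404). Plin4 was also lower without overlap, while the groups overlapped in Cidec and Fabp4. Fabp4 had 16.0 and 34.3 FPKM with dabigatran and 15.6 to 31.2 FPKM on diet alone. The summed level of the 9 markers was 43.0 and 63.5 FPKM with dabigatran and 76.7 to 249 FPKM on diet alone. That sum includes Cfd, whose values are given below. The adipocyte genes Lep and Plin1 were listed at 0 in all 5 libraries. Adipoq and Retn were at 0 in all but diet replicate 0, at 0.320 and 0.677 FPKM. Cfd was also highest in that library, at 150 FPKM, against 28.3 and 47.5 FPKM in diet replicates 1 and 2 and 0 with dabigatran. The part of macrophages, or of any adipocytes, in the Lpl values was not tested. Of 7 tested stellate cell and fibroblast markers, 0 were higher and 1 lower at an unadjusted p under 0.05 (limma). The shares of all tested genes were 6.87% and 9.13%. Of 5 cholangiocyte markers, 1 passed the filter on low values and 0 differed.

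Angptl4 (chromosome 17, 33773750 to 33781830, minus strand) encodes angiopoietin-like 4, a secreted inhibitor of lipoprotein lipase that fasting and fatty acids induce through PPAR receptors. It had 55.7 and 86.2 FPKM in dabigatran replicates 1 and 2, against 31.4, 39.5 and 34.9 FPKM in diet replicates 0, 1 and 2. Both dabigatran libraries were above all diet libraries, and replicate 2 was well above replicate 1. The counts behind them were 205 and 286 fragments with dabigatran and 135, 129 and 145 on diet alone. The lowest counting interval in the dabigatran libraries began at 48.3 FPKM, and the highest in the diet libraries ended at 46.9 FPKM. The log2 difference was 0.97 ± 0.23 (SE), with a 95% interval from 0.45 to 1.49. The unadjusted p was 0.00261 and the adjusted p 0.102 (limma). Without dabigatran replicate 2 the difference was 0.66 (adjusted p = 0.420), and without dabigatran replicate 1 it was 1.28 and passed (adjusted p = 0.0398), in a fit that takes the lone dabigatran library to vary like the diet libraries.

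**Figure D2:**
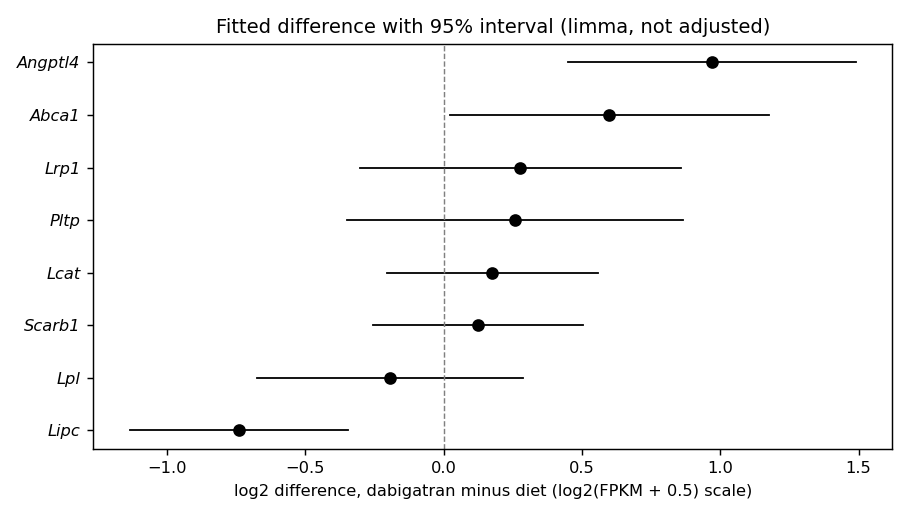
Fitted log2 difference of each gene, dabigatran minus diet, on the log2(FPKM + 0.5) scale (points) with its unadjusted 95% interval (lines). The intervals of Angptl4, Abca1 and Lipc lie to one side of 0, those of the other 5 genes cross it.

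Angptl4 and Lipc changed places in the order of levels, which the study's scaling between libraries cannot affect. Chosen after the values were seen, the ratio of Angptl4 to Lipc FPKM was 1.64 and 2.31 in the dabigatran libraries, against 0.537, 0.712 and 0.531 in the diet libraries. Counted from the most abundant of the 8 genes, Lipc had rank 4 and 5 in dabigatran replicates 1 and 2, against rank 3 in each diet library. Angptl4 had rank 3 and 2 in those dabigatran libraries, above Lipc in both, against rank 4 or 5 in the diet libraries. The ratio of Angptl4 to Lpl, an inhibitor against its target, was 5.67 and 9.54 with dabigatran and 2.74 to 3.80 on diet alone.

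**Figure D3:**
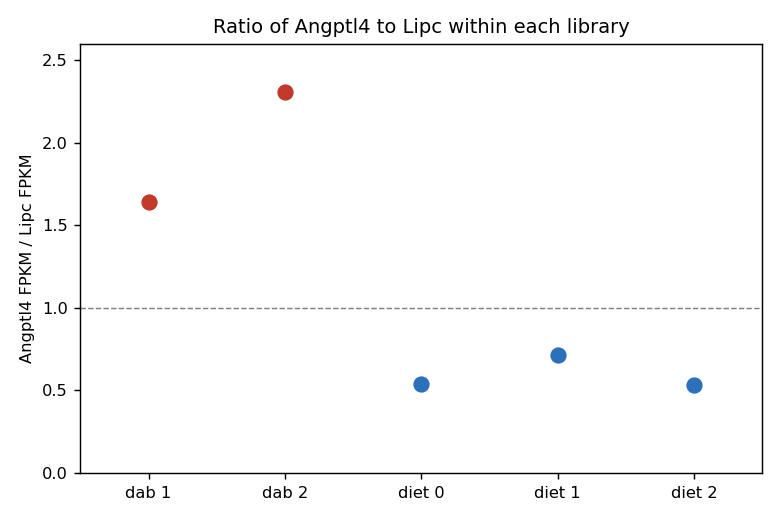
Ratio of Angptl4 FPKM to Lipc FPKM (vertical axis, linear from 0) in each dabigatran library (dab, red) and diet library (blue), with equal levels at the dashed line. The ratio is 1.64 and 2.31 with dabigatran and below 1 in all 3 diet libraries.

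Abca1 (chromosome 4, 53030787 to 53159895, minus strand) encodes the ATP-binding cassette transporter that lipidates apolipoprotein A-I and that the oxysterol receptor LXR induces. It had 32.8 and 54.1 FPKM in dabigatran replicates 1 and 2, against 29.1, 31.1 and 23.3 FPKM in diet replicates 0, 1 and 2. Dabigatran replicate 1 lay just above the diet libraries and its counting interval, 30.4 to 35.2 FPKM, overlapped that of diet replicate 1, 28.7 to 33.7 FPKM. Dabigatran replicate 2 stood apart, on 1065 fragments. The log2 difference was 0.60 ± 0.25 (SE), with a 95% interval from 0.02 to 1.17 and an adjusted p of 0.296 (limma). It was 0.24 without dabigatran replicate 2 and 0.96 without dabigatran replicate 1.

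Promoters were read for Abca1 and Lipc, the 2 genes with an unadjusted p under 0.05 that the RefSeq promoter table (GRCm38.p6) holds, to show what sequence stands at the starts of a gene with higher and a gene with lower values. Of the 8 genes, 5 were in that table. Each window runs from 250 bases before to 50 bases after the start, and both lie on the minus strand, Abca1 at chr4:53159846-53160145 and Lipc at chr9:70952172-70952471. The table lists 2 starts for Lipc, of which the one nearest the GENCODE start of the gene was read. Capitals mark matches to 3 motifs searched on both strands: the TATA box TATAAA, the E-box CACGTG, and GGTTA followed after 5 bases by GGTCA, the main letters of the LXR direct repeat described for the Abca1 promoter.
Abca1: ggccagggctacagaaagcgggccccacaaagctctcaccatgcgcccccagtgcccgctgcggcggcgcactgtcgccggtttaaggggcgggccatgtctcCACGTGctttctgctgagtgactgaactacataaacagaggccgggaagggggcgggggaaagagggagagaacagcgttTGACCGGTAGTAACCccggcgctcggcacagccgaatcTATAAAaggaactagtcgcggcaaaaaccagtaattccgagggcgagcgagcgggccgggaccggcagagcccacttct
Lipc: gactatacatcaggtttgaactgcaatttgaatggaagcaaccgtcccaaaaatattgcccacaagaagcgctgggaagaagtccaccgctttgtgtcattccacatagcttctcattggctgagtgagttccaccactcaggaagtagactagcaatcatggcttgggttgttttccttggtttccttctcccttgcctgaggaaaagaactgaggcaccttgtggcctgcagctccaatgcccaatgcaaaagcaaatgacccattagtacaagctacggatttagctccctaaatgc
In Abca1 the E-box stood 147 to 142 bases before the start, the repeat 67 to 53 bases before it on the opposite strand (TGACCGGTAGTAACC as printed), and the TATA box 29 to 24 bases before it. This window of Lipc held none of the 3, which says only that these letters are not in it. Among 32851 promoter windows of the same length, 13.6% held the TATA box, 7.15% the E-box and 0.0487% the repeat. The motifs were chosen with knowledge of the Abca1 promoter, and a match is a description of sequence, not of binding.

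Scarb1 (chromosome 5, 125277087 to 125341094, minus strand) encodes scavenger receptor BI, through which hepatocytes take up HDL cholesteryl ester. It had 80.4 and 86.0 FPKM in the dabigatran libraries, against 73.9, 72.3 and 83.1 FPKM in diet replicates 0, 1 and 2. The groups overlapped, and the spread within the diet group was 5.79 FPKM (SD, n = 3) on a mean of 76.4 FPKM. The log2 difference was 0.12 ± 0.16 (SE), with a 95% interval from -0.26 to 0.50 (limma, adjusted p = 0.756).

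Lrp1 (chromosome 10, 127538161 to 127621148, minus strand) encodes a large endocytic receptor for remnants, found on hepatocytes and macrophages. It had 31.9 and 33.7 FPKM in the dabigatran libraries, against 33.1, 19.2 and 30.8 FPKM in diet replicates 0, 1 and 2. Diet replicate 1 stood below the other 4 libraries, on 545 fragments, and its counting interval ended at 20.9 FPKM. The log2 difference of 0.28 ± 0.25 (SE; limma, adjusted p = 0.627) was 0.038 without that library.

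By level, Lcat, then Scarb1, came first in the diet libraries, and Pltp and Lpl came last in all 5. Lrp1, Abca1 and Angptl4 lay between Lipc and Pltp in the diet libraries, and Lrp1 and Abca1 exchanged places between them. With dabigatran, Scarb1 at 83.2 ± 3.94 FPKM and Angptl4 at 70.9 ± 21.6 FPKM were within their spread of each other, and the values of Abca1, at 43.4 ± 15.1 FPKM, overlapped those of Lipc, at 35.6 ± 2.42, and Lrp1, at 32.8 ± 1.25 (SD, n = 2). Lipc lay above Lrp1 in both dabigatran libraries. Their counting intervals overlapped in dabigatran replicate 1, at 28.2 to 40.3 and 30.0 to 33.9 FPKM. On diet alone, Lrp1 at 27.7 ± 7.43 FPKM overlapped Abca1 at 27.8 ± 4.07 and Angptl4 at 35.3 ± 4.02 (SD, n = 3). Angptl4 lay above Abca1 in all 3 diet libraries. The counting intervals of these 2 genes overlapped in diet replicate 0, at 26.4 to 37.2 and 27.1 to 31.3 FPKM. Mean levels over the 5 libraries placed Lcat above 96.7% and Lpl above 62.9% of the tested genes. Between diet libraries, the SD was 26.8% of the mean for Lrp1 and 22.6% for Pltp, and 7.58% to 14.8% for the other 6.

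Of 10 tested partners of the lipases, 7 had lower values with dabigatran and 0 were called. At an unadjusted p under 0.05, 0 were higher and 2 lower (limma), beside 6.87% and 9.13% of all tested genes, and the median log2 difference was -0.29. Lipa, the lysosomal acid lipase, had 70.8 ± 31.3 FPKM with dabigatran (SD, n = 2) and 127 ± 10.9 FPKM on diet alone (SD, n = 3), and its adjusted p was 0.168 (limma). Apoc2, the activator of lipoprotein lipase, had 348 ± 34.5 FPKM with dabigatran and 548 ± 132 FPKM on diet alone (SD, n = 2 and n = 3). Lmf1, a factor for lipase maturation, had 10.7 ± 0.168 FPKM with dabigatran and 14.0 ± 2.11 FPKM on diet alone (SD, n = 2 and n = 3). Gpihbp1, which anchors lipoprotein lipase on capillaries, had 13.3 and 21.7 FPKM with dabigatran and 17.5 to 21.5 FPKM on diet alone. The endothelial lipase gene Lipg had 2.19 and 1.14 FPKM with dabigatran and 1.30 to 2.51 FPKM on diet alone.

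At an unadjusted p under 0.05, 2 of 11 HDL partners were higher and 2 lower (limma), beside 6.87% and 9.13% of all tested genes. Their median log2 difference was -0.32, and 0 were called. Apoa1, the main HDL protein and the acceptor of ABCA1, had 7630 and 10688 FPKM with dabigatran, against 3443, 5660 and 4189 FPKM in diet replicates 0, 1 and 2. Its log2 difference was 1.06 ± 0.29 (SE; limma, adjusted p = 0.142). Apom, an apolipoprotein of HDL, had 183 and 172 FPKM with dabigatran and 62.5 to 134 FPKM on diet alone. Pdzk1, the adaptor that holds SR-BI at the hepatocyte surface, had 10.4 and 12.3 FPKM with dabigatran, against 20.0, 17.5 and 24.1 FPKM on diet alone, a log2 difference of -0.82 ± 0.21 (SE; limma, adjusted p = 0.124). The Pdzk1 groups did not overlap, whereas those of Scarb1 did. The HDL-bound paraoxonase gene Pon3 had 28.3 ± 1.65 FPKM with dabigatran (SD, n = 2) and 46.3 ± 3.54 FPKM on diet alone (SD, n = 3). Apoe, the ligand of remnant receptors, had 5496 and 6566 FPKM with dabigatran and 6219 to 10718 FPKM on diet alone. The sterol exporter gene Abcg1 had 1.39 and 1.46 FPKM with dabigatran and 1.82 to 2.03 FPKM on diet alone.

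Receptors and their regulators included 14 tested of 19 measured genes. At an unadjusted p under 0.05, 5 were higher and 1 lower (limma), beside 6.87% and 9.13% of all tested genes. The 14 had a median log2 difference of 0.34, and 0 were called. Lsr, the lipolysis-stimulated lipoprotein receptor, had 42.4 and 47.7 FPKM with dabigatran, against 16.3, 20.3 and 30.3 FPKM in diet replicates 0, 1 and 2 (log2 difference 1.04 ± 0.26, SE; limma, adjusted p = 0.119). Mylip, a ubiquitin ligase that LXR induces, had 9.12 and 9.94 FPKM with dabigatran and 4.12 to 6.35 FPKM on diet alone. Sdc1, a heparan sulfate proteoglycan that binds remnants, had 71.1 and 51.5 FPKM with dabigatran and 40.9 to 42.1 FPKM on diet alone. The fatty acid and lipoprotein scavenger gene Cd36 was the one with an unadjusted p under 0.05 and lower values, with a log2 difference of -1.89 (limma, adjusted p = 0.0941). Vldlr was below the filter, listed at 0 and at 0.124 FPKM with dabigatran and at 0.0646 to 0.806 FPKM on diet alone. Of 8 endothelial markers, which bear on receptors of the sinusoid, 1 (Lyve1) was higher and 1 (Clec4g) lower at an unadjusted p under 0.05 (limma). Lyve1 had 18.6 and 23.2 FPKM with dabigatran and 7.31 to 10.4 FPKM on diet alone. Clec4g had 37.2 and 25.4 FPKM with dabigatran and 50.4 to 53.6 FPKM on diet alone. The groups did not overlap in 5 markers with higher and 1 with lower dabigatran values, against 17.2% of all tested genes each way. The summed level of the 8 markers, in which opposite differences offset, was 113 and 111 FPKM with dabigatran and 112 to 114 FPKM on diet alone.

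**Figure D4:**
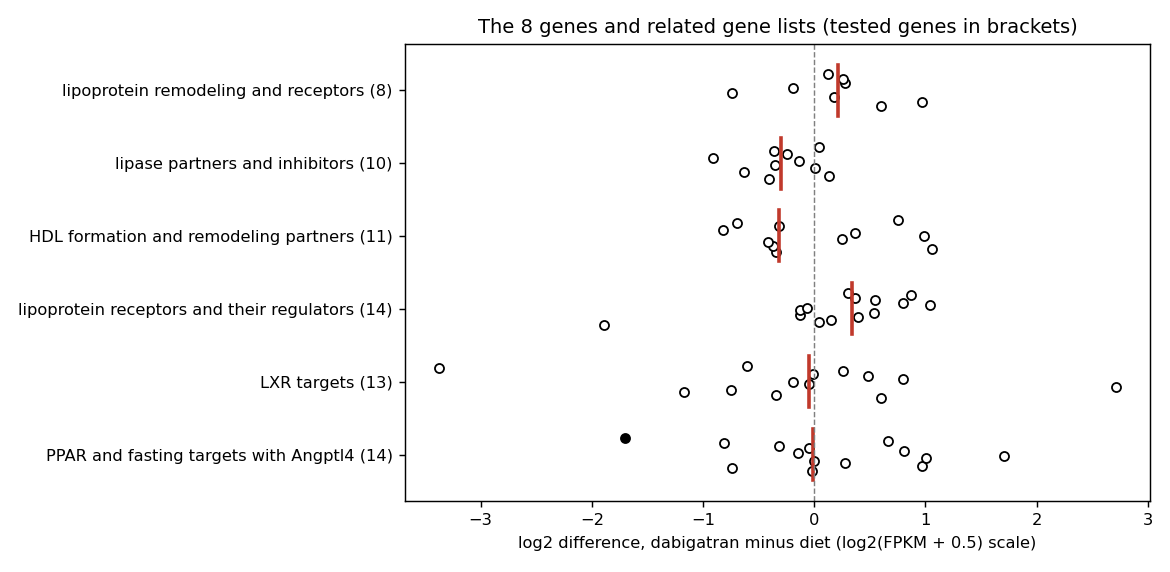
Fitted log2 difference, dabigatran minus diet, of each tested gene (circles, filled where limma's adjusted p is under 0.05) in the 8 genes and 5 related lists, with list medians as red lines. Medians run from -0.32 to 0.34, and Vnn1 is the one filled circle.

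Further lists grouped genes by the regulators known for Angptl4 and Abca1, and they hold some of the 8 genes. A list of 13 LXR genes and targets held Abca1, Pltp and Lpl, and also Nr1h2 and Nr1h3, which encode the LXR receptors. Of the 13, 4 were higher and 3 lower at an unadjusted p under 0.05 (limma), beside 6.87% and 9.13% of all tested genes. The 13 had a median log2 difference of -0.042, and 0 were called. The 4 higher were Cyp7a1, Mylip, Abca1 and the receptor gene Nr1h2. Abcg5 and Abcg8, the sterol exporters of the canalicular membrane, had log2 differences of -1.17 and -0.75 beside 0.60 for Abca1 (limma, adjusted p = 0.0639 and 0.109 for the pair). Scd1, a desaturase, had a log2 difference of -3.37 and Cyp7a1, the first enzyme of bile acid synthesis, 2.71 (limma, adjusted p = 0.0751 and 0.149). Of 14 PPAR and fasting targets, which include Angptl4, 4 were higher and 3 lower at an unadjusted p under 0.05 (limma). The shares of all tested genes were again 6.87% and 9.13%. These targets had a median log2 difference of -0.0089, and 1 was called, beside 0.429% of all tested genes. The pantetheinase gene Vnn1 fell (log2 difference -1.70, limma adjusted p = 0.0279), while the omega-hydroxylase gene Cyp4a14 had a log2 difference of 1.71 (limma, adjusted p = 0.0751).

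Among all tested genes, those with profiles closest to the 3 genes of lowest p were found by the root mean square difference of centred log2 values over the 5 libraries. Bphl and Guk1 lay closest to Lipc, at 0.037 and 0.050. Hnrpdl and Sik3 lay closest to Angptl4, at 0.040 and 0.062, and Pspc1 and Dnaja3 to Abca1, at 0.047 and 0.058. With 5 libraries such likeness is common: 386 genes lay within 0.2 of Lipc, 132 of Angptl4 and 336 of Abca1.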

How the data were processed

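Libraries were prepared with a TruSeq RNA kit from total RNA of snap frozen liver, per the labels' protocols. The deposited values are FPKM, per the file headers. The submitters' processing notes name CASAVA, TopHat2 2.0.4, Cuffdiff, R 2.15.1 and the builds mm10 and GRCm38, without saying which did what. Annotation, strand use and the scaling of libraries are not stated.

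FPKM values entered as log2(FPKM + 0.5). A gene was tested if 3 or more of the 5 distinct libraries reached 1 FPKM, which kept 10247 genes. The fit used limma 3.58.1 in R 4.3.3 (eBayes with a variance trend, group as sole term, two-sided, Benjamini-Hochberg adjustment, threshold 0.05). The planned 6 libraries became 5 because 2 tables were identical. That replicates are separate animals rests on 1 word of the design text, mice. If they are not, p-values measure only the spread between these samples. Differences and folds are on the log2(FPKM + 0.5) scale, dabigatran minus diet, which understates low genes. The fit was tested on simulated data.

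Low values (under 0.3 FPKM) step by whole fragments, which gave the relative library size behind the FPKM. Fragments are the smallest whole numbers up to 2000 that match all 5 libraries within a relative tolerance of 2e-05. They were found for 8199 tested genes (80.0%) and 7 of the 8 genes, not Scarb1. True numbers can be a multiple. Counting intervals are exact Poisson intervals (95%) on them and cover counting error only.

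Gene positions are from GENCODE M21 (GRCm38). The genes and lists were chosen with earlier results of these data known. Genes named were all 8, as many as 4 per list by lowest unadjusted p, and Vldlr, Apoa1, Apoe, Gpihbp1, Lipg, Abcg1 and Adipoq whatever their p. Some genes that this rule names are not reported here. Others named were chosen after their values were seen. Angptl8, Tf and Adgre1 were matched as Gm6484, Trf and Emr1 through RefSeq synonyms.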

Additional observations from a re-analysis of the deposited data

How the results depend on the processing

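Of the 8 genes, 7 kept the direction of their difference under all alternatives run, and Pltp, at 0.26 with all libraries, turned to -0.050 without dabigatran replicate 1. Leaving out 1 library at a time, Pltp ranged from -0.050 to 0.56. Over alternatives, Lipc lay between -0.81 and -0.67 (adjusted p 0.0241 to 0.338), Angptl4 between 0.66 and 1.28 (0.0398 to 0.420) and Abca1 between 0.24 and 0.96 (0.0981 to 0.813). In the same 5 fits limma called 0 to 1 of the 8 (Angptl4, without dabigatran replicate 1). Counting the identical tables as 3 samples, which repeats a library, called 1 of them, Lipc. All other alternatives called 0. Over all genes, limma called 13 higher and 31 lower, with 1640 at an unadjusted p under 0.05. Leaving out 1 library gave 0 to 95 higher and 0 to 199 lower: 0 and 0 without dabigatran replicate 2 or diet replicate 2 (1010 and 1107 at an unadjusted p under 0.05), 0 and 1 without diet replicate 0, 95 and 199 without diet replicate 1, and 94 and 181 without dabigatran replicate 1. The counts were 6 and 17 with a pseudocount of 0.1, 8 and 27 with at least 5 FPKM, 11 and 16 after quantile normalization, 142 and 257 with the 3 deposited dabigatran tables, and 8 and 7 with voom on whole fragments, an alternative chosen after seeing the data. Without a filter on low values, or without a variance trend, 0 were called (1933 and 1562 at an unadjusted p under 0.05). The cause was not tested. A replicate block gave 5 and 8 and called 0 of the 8. Its block for number 0 holds diet replicate 0 alone, so its differences for the 8 genes equal those without that library. Libraries of the same number did not deviate together (correlations -0.045 and -0.025). With n = 2, the deviations of the dabigatran libraries only mirror each other. These correlations therefore cannot settle whether the numbers pair the samples. At an unadjusted p under 0.05, Lipc and Angptl4 kept their side of the limit in all 15 alternatives run (p up to 0.0176 and 0.0247). Abca1 lost it under median centring, without a variance trend, with the replicate block, with the 3 deposited tables, and without dabigatran replicate 2, diet replicate 0 or diet replicate 2. Depth limits the counting intervals, which were widest relative to the value where Pltp, with 44 fragments in diet replicate 1, was lowest.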
